A study of Mus musculus with 6 samples.

Results

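The 10 transcripts described here encode the machinery that carries a lymphotoxin-β receptor signal to the nucleus in mouse hematopoietic stem cells (HSCs): the 5 Rel-domain subunits of NF-κB (*Nfkb1*, *Nfkb2*, *Rel*, *Rela* and *Relb*) and 5 members of the IκB family (*Nfkbia*, *Nfkbib*, *Nfkbie*, *Nfkbiz* and *Bcl3*). They were chosen by gene symbol, each symbol occurred once, and all 10 were found among 26216 gene names. The RNA came from LT/ST-HSCs of mixed chimeras, viable Lin- Sca1+ c-Kit+ CD150+ CD48- bone marrow cells sorted 6 weeks after transplantation. In these chimeras LSKs of *Ltbr*-/- donors (CD45.2) and of Ly5.1 donors (CD45.1) shared the same lethally irradiated Ly5.1/Ly5.2 recipients. Each genotype was represented by 3 samples, for which cells of several chimeras had been pooled. The *Ltbr*-/- mice carry a homozygous intragenic deletion in all tissues, so that the donor cells lacked the receptor before as well as after transplantation. Donor age was 13 weeks, 10 weeks and 10 to 13 weeks for *Ltbr*-/- replicates 1, 2 and 3 and 7 to 13 weeks for each Ly5.1 replicate, and its part in any difference was not tested.

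NF-κB proteins bind DNA as dimers of Rel-domain subunits. In resting cells they are held in the cytoplasm by IκB proteins, and phosphorylation of the IκB by the IKK complex leads to its destruction and frees the dimer. The canonical branch acts mainly through p50, made from the precursor p105 (*Nfkb1*), with RelA or c-Rel. The noncanonical branch, in which the lymphotoxin-β receptor is a classical trigger, stabilizes the kinase NIK and leads to processing of p100 (*Nfkb2*) to p52, the partner of RelB. *Nfkbiz* (IκBζ) and *Bcl3* encode nuclear IκB proteins that bind p50 or p52 dimers on DNA and change which genes are transcribed. Most of this control acts on proteins, which were not measured here.

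Several members are themselves target genes of NF-κB, and the sequence around their start sites was therefore searched for the motif that NF-κB binds. RefSeq start windows (GRCm38.p6, 250 bases before to 50 bases after a start) were matched for 7 of the 10 members, namely *Nfkb2*, *Rel*, *Rela*, *Nfkbia*, *Nfkbib*, *Nfkbie* and *Bcl3*. The NF-κB consensus motif of 10 letters, searched on both strands, occurred in the windows of 5 of these 7 genes, against 5.14% of all 27025 genes with a window and 4.51% of all 32851 windows. The matches in these 5 genes, which include both inhibitors and subunits, are given in the direction of transcription to show how they vary, with the matched letters in capitals and 9 flanking bases on each side.

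*Nfkbia*, minus strand, chr12:55492658-55492685: gactggcttGGAAATTCCCcgcgcctga
*Nfkbie*, plus strand, chr17:45555585-45555612: cagcaaacaGGGGGATTCCggaggggcg
*Rel*, minus strand, chr11:23771042-23771070: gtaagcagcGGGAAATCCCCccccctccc
*Nfkb2*, plus strand, chr19:46304689-46304717: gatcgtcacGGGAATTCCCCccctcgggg
*Nfkb2*, plus strand, chr19:46304717-46304744: gggccgaaaGGGGCTTTCCcggctggag
*Nfkb2*, plus strand, chr19:46305450-46305477: ccgacggcaGGAATGTCCCcacaaaagc
*Nfkb2*, plus strand, chr19:46305696-46305723: ggtattttcGGGACTTTCCtaagcagca
*Bcl3*, minus strand, chr7:19822735-19822762: cggcggcagGGGAAGTCCCgctgcccgg

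The match in *Nfkbia* begins 29 bases before its start and the first match in *Nfkb2* 39 bases before the start of its first window, whereas that in *Bcl3* begins 2 bases after the start. In *Rel* and in the first *Nfkb2* site 2 matches overlapped, which gives 11 capitals. The windows of *Nfkbib* and *Rela* held no match, which says only that these letters are not in those windows, and a match is not evidence of binding. The 250 bases before the start of *Nfkbia* are given in full, because it is the inhibitor gene most closely tied to NF-κB activity and no annotated exon reaches into them (GRCm38.p6, minus strand, chr12:55492648-55492897).

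*Nfkbia* upstream: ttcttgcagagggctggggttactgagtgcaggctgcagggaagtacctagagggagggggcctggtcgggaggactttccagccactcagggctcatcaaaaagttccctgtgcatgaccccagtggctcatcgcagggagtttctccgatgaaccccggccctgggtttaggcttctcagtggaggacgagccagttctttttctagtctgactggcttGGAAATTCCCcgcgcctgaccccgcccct

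Before the members were compared, the labels and the sort were checked. *Ltbr* lay between 23.1 and 26.4 in the *Ltbr*-/- samples and between 522 and 564 in the Ly5.1 samples, on the scale of the deposited values, which are powers of 2 of regularized log values. All 10 HSC marker genes of the list used here were among the 13108 tested genes, and the CD48 gene had a mean of 25.2 and 25.1 in *Ltbr*-/- and Ly5.1 cells, against 263 and 298 for the CD150 gene *Slamf1*. The sum of 5 T-cell markers overlapped, with 42.9 to 43.9 in *Ltbr*-/- and 42.5 to 45.6 in Ly5.1; *Cd3e* was at 0.979 to 0.996, and *Cd3g* was the highest of them at 15.9 to 17.3. The sum of 6 neutrophil markers did not overlap between genotypes, with 27464 to 27696 in *Ltbr*-/- and 37160 to 40099 in Ly5.1. By the test used below, 6 of 6 markers were lower. The surface marker *Ly6g* was at 18.5 to 21.1, percentile 3.34 of the tested genes by level. *S100a8*, *S100a9*, *Ngp*, *Camp* and *Ltf* were among the highest genes, from percentile 97.0 for *Ltf* to 99.3 for *S100a9*. The sum of 5 mast cell and basophil markers was 7064 to 7455 in *Ltbr*-/- and 3396 to 4001 in Ly5.1, with 2 of 5 markers higher, and that of 6 macrophage markers overlapped, with 5790 to 6482 and 6379 to 6863, 2 markers being higher and 1 lower. The sums of several other lists also moved with the genotype. That of 8 B-cell markers was 1401 to 1535 in *Ltbr*-/- and 2255 to 2419 in Ly5.1, with the immunoglobulin genes *Ighm* and *Igkc* lower (log2 differences of −1.04 and −1.21) and *Cd79a* higher (0.62). That of 4 erythroid markers was 2654 to 2934 and 1591 to 1957, with the hemoglobin gene *Hba-a1*, which has a near-identical copy, higher (0.99). That of 3 multipotent progenitor markers was 2973 to 3316 and 3797 to 4002, with *Flt3* and *Cd34* lower (−0.28 and −0.31), that of the HSC markers 13676 to 14247 and 15648 to 15914, and that of 4 megakaryocyte markers 572 to 624 and 637 to 762. The part of these lists in the results that follow was not tested. In RNA from sorted populations, fewer cells of a type cannot be told apart from less RNA per cell. None of the 10 members lies on chromosome 6, which carries *Ltbr*, or on chromosome 1, which carries the CD45 gene *Ptprc* at which the donors differ.

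In the *Ltbr*-/- samples *Nfkbib* was higher and *Nfkbiz* lower than in the Ly5.1 samples, and both differences were small. *Nfkbib*, which encodes IκBβ, was 1.25-fold higher in *Ltbr*-/- than in Ly5.1 LT/ST-HSCs, except with samples scaled on ribosomal protein genes, where its log2 difference was −0.54 and that of the median tested gene −0.88. *Nfkbiz* was 1.34-fold lower and kept this direction in every alternative, of which the ribosomal scaling lowers every log2 difference alike. The other 8 members did not pass the test. Genes were tested with limma, with p adjusted over the 13108 names in the upper 50% by mean. At an adjusted p under 0.05, 1 member was higher and 1 lower, a total of 2 of 10, where 14.8% of all tested genes passed (10.6% higher and 4.18% lower). With the additional threshold of a 1.5-fold difference, limma called 0 of the 10 members, where 2.78% of all tested genes were called; 3 of the 10 had an unadjusted p under 0.05, as had 27.1% of all tested genes. The median log2 difference of the 10 members was 0.0037, beside −0.01 for all tested genes. In 4 of the 10 members the *Ltbr*-/- and Ly5.1 values did not overlap, which was so for 30.4% of the tested genes, so that the shares of members were near those of all genes.

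**Figure D1:**
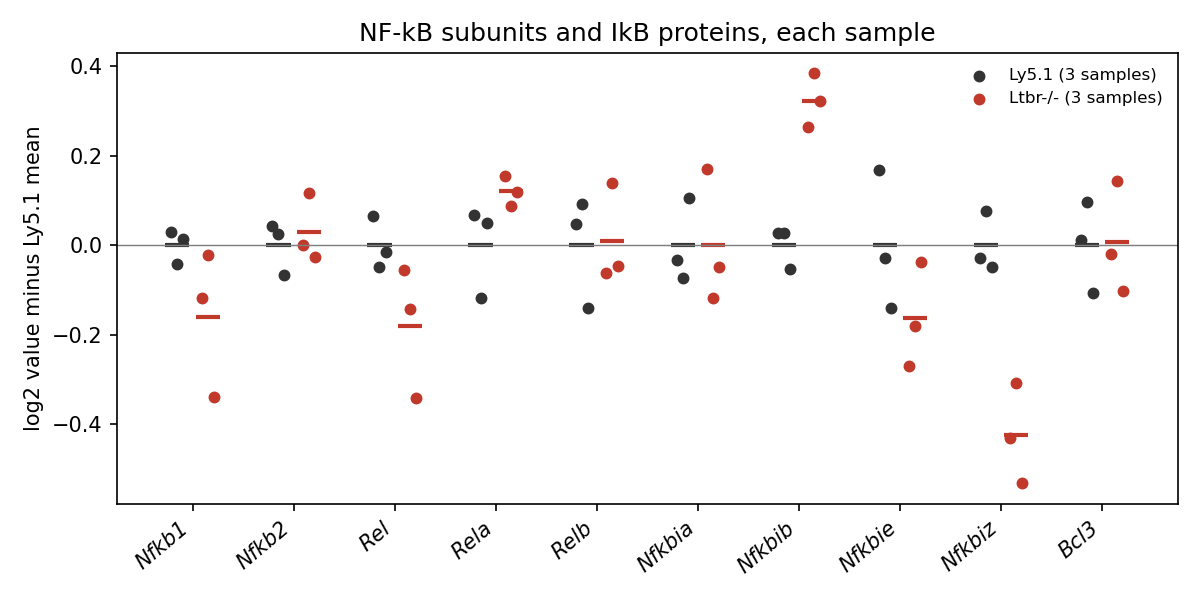
Log2 of the deposited value minus the mean of the 3 Ly5.1 samples (vertical axis) for the 10 members (horizontal axis), in the scaling as deposited. Points are samples (black Ly5.1, red *Ltbr*-/-) and bars the means of 3. The *Ltbr*-/- points of *Nfkbib* lie above and those of *Nfkbiz* below all Ly5.1 points, while those of *Nfkb2*, *Relb*, *Nfkbia*, *Nfkbie* and *Bcl3* are mixed with them.

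Among the classical IκB genes, *Nfkbib* lies on the minus strand of chromosome 7 (GRCm38, 28758251 to 28767512). The *Ltbr*-/- samples stood at 688, 748 and 717 and the Ly5.1 samples at 584.1, 584.5 and 553. Every *Ltbr*-/- sample was above every Ly5.1 sample, and the lowest *Ltbr*-/- value exceeded the highest Ly5.1 value by more than either SD. The mean was 718 ± 30.0 (SD, n = 3) against 574 ± 18.1 (SD, n = 3), a log2 difference of 0.32 (standard error 0.09, 95% interval 0.14 to 0.51, adjusted p = 0.0110 from limma). With the 6 values permuted exactly, the two-sided p was 0.1, which is the lowest value that groups of 3 allow. Without *Ltbr*-/- replicate 2 the log2 difference was 0.29 and the adjusted p 0.0608. In the other 5 fits that each left out 1 sample the adjusted p was under 0.05.

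Of the 2169 exonic bases of *Nfkbib*, 356 overlap exons on the opposite strand, of *Sirt2* and *Ccer2*. *Sirt2*, a deacetylase gene, had values of 996, 822 and 993 in *Ltbr*-/- and of 915, 814 and 966 in Ly5.1 cells. These overlapped, and the log2 difference was 0.06 (standard error 0.09, adjusted p = 0.744 from limma). The library kit was stranded, but whether strand was used in counting is not given in the sources used here, so that reads in the overlap cannot be assigned with certainty.

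*Nfkbia*, on chromosome 12 (55489410 to 55492647, minus strand), encodes IκBα, the inhibitor that is degraded and resynthesized fastest after a stimulus. Its values were 1330, 1089 and 1142 in *Ltbr*-/- and 1156, 1124 and 1272 in Ly5.1 cells. *Ltbr*-/- samples held both the highest and the lowest value. The log2 difference was 0.00045, with a 95% interval from −0.18 to 0.18, so that a difference of more than 1.14-fold in either direction lay outside the interval. *Nfkbie* (IκBε), on chromosome 17 (45555703 to 45563169, plus strand), had 151, 160 and 177 in *Ltbr*-/- and 204, 178 and 165 in Ly5.1 cells. The groups overlapped, and the log2 difference was −0.16 (standard error 0.09, adjusted p = 0.271 from limma).

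Both IκBα and IκBβ hold canonical dimers in the cytoplasm, and their balance can be read within each sample. Per kb of transcript, the ratio of *Nfkbib* to *Nfkbia* was 0.396, 0.526 and 0.481 in *Ltbr*-/- and 0.387, 0.398 and 0.333 in Ly5.1 cells. The ratio of *Ltbr*-/- replicate 1, the sample with the highest *Nfkbia*, lay within the Ly5.1 range, so that the higher *Nfkbib* did not separate the genotypes on this ratio. No test was made of these ratios.

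Of the nuclear IκB genes, *Nfkbiz* lies on the minus strand of chromosome 16 (55811375 to 55838899). Its values were 435, 473 and 406 in *Ltbr*-/- and 575, 618 and 567 in Ly5.1 cells. All *Ltbr*-/- samples were lower than all Ly5.1 samples. The mean was 438 ± 34.0 (SD, n = 3) against 586 ± 27.6 (SD, n = 3), a log2 difference of −0.42 (standard error 0.09, 95% interval −0.61 to −0.23, adjusted p = 0.00110 from limma). The exact two-sided permutation p was 0.1. The interval reached a 1.53-fold difference at its far end. In the 6 fits that lacked a sample, the adjusted p ranged from 0.000942 to 0.0182. With no filter on low values, however, it was 0.0653 at the same log2 difference.

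*Nfkbiz* is known to be strongly induced in activated myeloid cells. The sum of the neutrophil markers was lower in the *Ltbr*-/- samples as well, as given above. That of the macrophage markers overlapped between genotypes, with 2 markers higher and 1 lower. All 10 HSC markers had a log2 difference below 0, and 2 of them, *Ly6a* and *Meis1*, passed the test. The part of these lists in the *Nfkbiz* difference was not tested.

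*Bcl3*, on chromosome 7 (19808462 to 19822770, minus strand), encodes the other nuclear IκB of the set. Its values were 134, 150 and 126 in *Ltbr*-/- and 137, 145 and 126 in Ly5.1 cells. The genotypes covered the same range, and the log2 difference was 0.0070 (95% interval −0.17 to 0.19, adjusted p = 0.974 from limma). The ratio of *Nfkbiz* to *Bcl3* per kb was 1.46, 1.42 and 1.44 in *Ltbr*-/- and 1.89, 1.91 and 2.02 in Ly5.1 cells, without overlap and without a test.

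**Figure D2:**
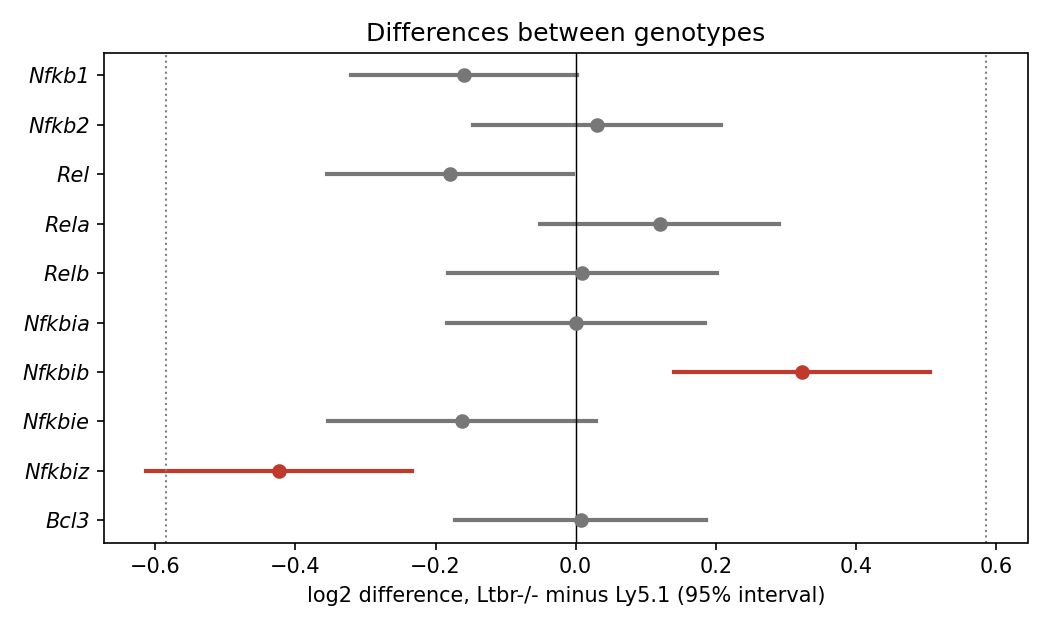
Log2 difference between the mean of 3 *Ltbr*-/- and 3 Ly5.1 samples (horizontal axis) with its 95% interval from limma for each member (vertical axis), in the scaling as deposited. Red marks an adjusted p under 0.05 and dotted lines a 1.5-fold difference; only *Nfkbib* at 0.32 and *Nfkbiz* at −0.42 are red, and both points lie inside the dotted lines.

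None of the 5 Rel-domain genes passed the test. Their log2 differences ran from −0.18 for *Rel* to 0.12 for *Rela*, and the 95% intervals of all 8 members other than *Nfkbib* and *Nfkbiz* reached at most a 1.28-fold difference. These intervals are not adjusted for the number of genes, and they apply to regularized values, in which the differences of weakly expressed genes are drawn in.

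*Nfkb1*, on chromosome 3 (135584655 to 135691547, minus strand), encodes p105 and p50. Its values were 3622, 3874 and 3106 in *Ltbr*-/- and 4012, 3816 and 3966 in Ly5.1 cells. *Ltbr*-/- replicate 2 fell within the Ly5.1 range, and replicate 3 was the lowest of all. The log2 difference was −0.16 (standard error 0.08, 95% interval −0.32 to 0.0022, adjusted p = 0.191 from limma). After quantile normalization it was −0.26 and passed the test (adjusted p = 0.0179 from limma). Without *Ltbr*-/- replicate 3 it was −0.07.

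*Rela*, on chromosome 19 (5637483 to 5648130, plus strand), encodes p65, the main activating subunit of the canonical branch. Its values were 1700, 1622 and 1658 in *Ltbr*-/- and 1601, 1407 and 1581 in Ly5.1 cells. The groups did not overlap, but the gap between them was smaller than the SD of the *Ltbr*-/- samples, 39.2 (n = 3). The log2 difference was 0.12 (standard error 0.08, 95% interval −0.05 to 0.29, adjusted p = 0.378 from limma). *Rel* (c-Rel), on chromosome 11 (23736847 to 23770970, minus strand), had 127, 120 and 104 in *Ltbr*-/- and 138, 128 and 131 in Ly5.1 cells. These groups also did not overlap, by a gap below either SD, and the log2 difference was −0.18 (standard error 0.09, adjusted p = 0.172 from limma).

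The noncanonical pair had the smallest differences of the Rel-domain genes. *Nfkb2*, on chromosome 19 (46304320 to 46312385, plus strand), had 985, 1067 and 967 in *Ltbr*-/- and 1014, 1002 and 940 in Ly5.1 cells. *Relb*, on chromosome 7 (19606217 to 19629438, minus strand), had 201, 231 and 203 in *Ltbr*-/- and 217, 223 and 190 in Ly5.1 cells. In both genes the genotypes were interleaved. The log2 differences were 0.03 (95% interval −0.15 to 0.21) for *Nfkb2* and 0.0097 (95% interval −0.18 to 0.20) for *Relb*, and differences of more than 1.16-fold and 1.15-fold lay outside these intervals.

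Divided by transcript length, the members spanned a wide range of levels. Lengths were those of the longest protein-coding transcript in GENCODE M21. In Ly5.1 cells *Nfkb1* was highest with 955 ± 24.8 per kb (SD, n = 3), then *Nfkbia* with 750 ± 49.4, *Rela* with 563 ± 39.3, *Nfkbib* with 278 ± 8.80 and *Nfkb2* with 256 ± 10.3. Below them came *Nfkbiz* with 143 ± 6.71, *Relb* with 95.04 ± 7.91, *Nfkbie* with 75.0 ± 8.22, *Bcl3* with 73.5 ± 5.16 and *Rel* with 17.7 ± 0.719. Neighbours in this order whose values overlapped over the 6 samples were *Nfkb1* and *Nfkbia*, *Nfkbib* and *Nfkb2*, *Nfkbiz* and *Relb*, and *Nfkbie* and *Bcl3*. With the median length of each gene's protein-coding transcripts instead, *Rela* moved above *Nfkbia* and *Bcl3* above *Relb* and *Nfkbie*. The canonical genes *Nfkb1*, *Rela* and *Nfkbia* were thus the 3 highest members by either length, and c-Rel the lowest.

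**Figure D3:**
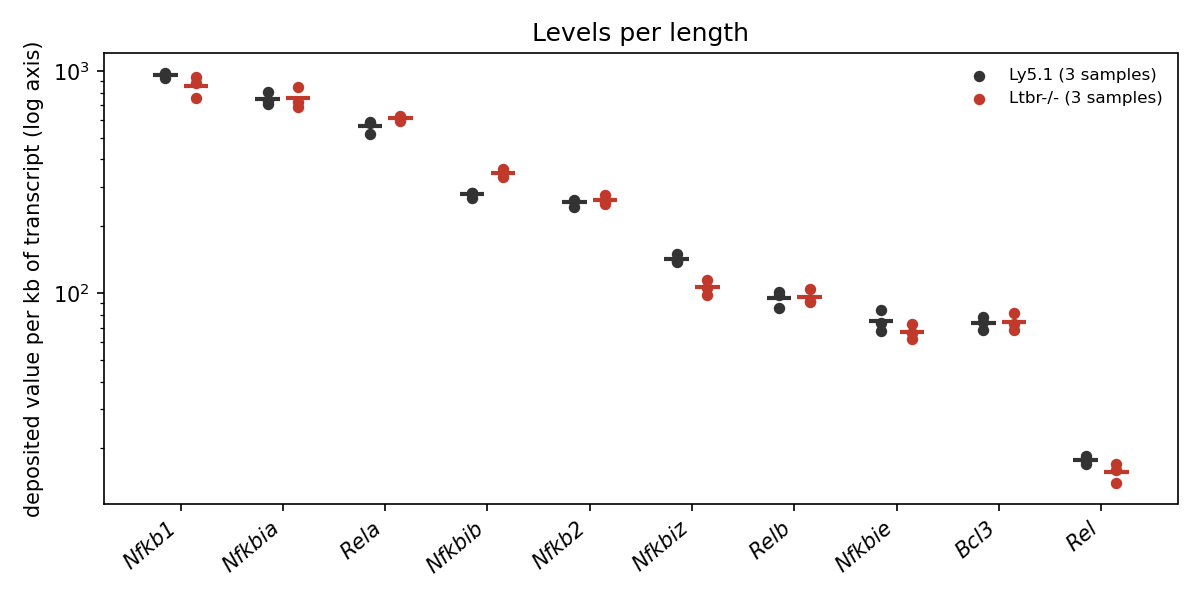
Deposited value per kb of transcript (vertical axis, logarithmic) for each member (horizontal axis, ordered by the Ly5.1 mean); points are samples and bars means of 3 (black Ly5.1, red *Ltbr*-/-). Levels fall from 955 per kb for *Nfkb1* to 17.7 for *Rel* in Ly5.1 cells, a range far wider than any difference between the genotypes.

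Of the summed per-kb value of the Rel-domain genes, *Nfkb1* made up 47.1%, 48.6% and 43.8% in *Ltbr*-/- and 50.1%, 50.8% and 50.9% in Ly5.1 cells. *Rela* made up 33.5%, 30.8% and 35.5% in *Ltbr*-/- and 30.3%, 28.4% and 30.7% in Ly5.1 cells. Neither share overlapped between the genotypes, with the *Rela* share parted only narrowly. That of *Rel* did not overlap either, at 0.811% to 0.910% in *Ltbr*-/- and 0.925% to 0.951% in Ly5.1 cells. The ratio of *Nfkb1* to *Rela* per kb was accordingly 1.41, 1.58 and 1.24 in *Ltbr*-/- and 1.65, 1.79 and 1.65 in Ly5.1 cells. The shares of *Nfkb2* and *Relb* did overlap, at 12.9% to 14.6% and at 4.55% to 5.54%. Shares of 1 sum are not independent of each other, and no test was made of them.

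**Figure D4:**
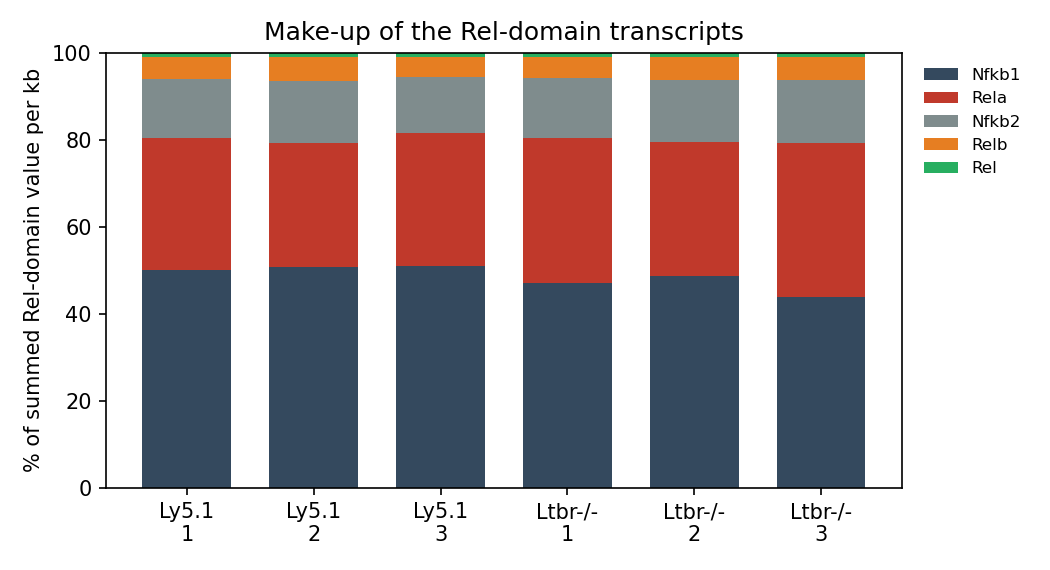
Percentage of the summed value per kb (vertical axis) taken by each of the 5 Rel-domain genes in the 6 samples (horizontal axis). *Nfkb1* takes 50.1% to 50.9% in the Ly5.1 samples and 43.8% to 48.6% in the *Ltbr*-/- samples, and *Rel* under 1% in each.

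Genes around the members were examined in 4 lists of 103 genes, of which 85 were tested. Of these, 3 were higher and 6 lower at an adjusted p under 0.05, or 10.6% of those tested, beside 14.8% of all genes. None passed the fold threshold in limma, and 25, or 29.4%, had an unadjusted p under 0.05, beside 27.1% of all genes. The count was sensitive to single samples and lay between 4 and 9 when each was left out, with 5 each without *Ltbr*-/- replicate 1, *Ltbr*-/- replicate 2, Ly5.1 replicate 1 and Ly5.1 replicate 2 and 4 without *Ltbr*-/- replicate 3.

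Upstream of the IκB proteins, few kinases and adaptors passed the test. Of 22 TRAF, cIAP, NIK and IKK genes, all tested, 0 were higher and 1 was lower. An unadjusted p under 0.05 from limma was found for 7 (31.8%), beside 27.1% of all tested genes. The log2 difference was below 0 in 17 of the 22, beside 7029 of all 13108 tested genes. Its median was −0.10, beside −0.01 for all tested genes. The lower gene was *Xiap*, a caspase inhibitor that also takes part in NF-κB activation, with 320, 272 and 287 in *Ltbr*-/- and 357, 417 and 346 in Ly5.1 cells. Its log2 difference was −0.35 (adjusted p = 0.0122 from limma). It no longer passed without *Ltbr*-/- replicate 2, *Ltbr*-/- replicate 3 or Ly5.1 replicate 2 (adjusted p up to 0.109), nor with no filter on low values (0.214). The IKK subunits *Chuk* (IKKα), *Ikbkb* (IKKβ) and *Ikbkg* (NEMO) had log2 differences of −0.07, −0.18 and −0.04, and *Map3k14*, which encodes NIK, one of −0.07 (adjusted p from 0.155 to 0.816 from limma). The adaptor gene *Traf2* had −0.08. The 95% interval of *Ikbkb*, unadjusted, was −0.36 to −0.01.

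Among 22 receptors, adaptors and ligands, 15 were tested, 0 were higher and 1 was lower, and 2 (13.3%) had an unadjusted p under 0.05. *Cd27*, a TNF receptor family member of stem and lymphoid cells, had 689, 881 and 713 in *Ltbr*-/- and 1002, 968 and 1028 in Ly5.1 cells. The *Ltbr*-/- values were all lower, at a log2 difference of −0.401 (standard error 0.09, adjusted p = 0.00223 from limma). The gene did not pass with no filter on low values (adjusted p of 0.177). Of 22 other regulators, all tested, 0 were higher and 2 were lower, and 6 (27.3%) had an unadjusted p under 0.05. *Tnfaip3*, which encodes A20, a ubiquitin-editing enzyme that ends NF-κB signaling and is itself a target gene, had 285, 276 and 273 in *Ltbr*-/- and 379, 340 and 372 in Ly5.1 cells. The genotypes did not overlap, and the log2 difference of −0.39 (standard error 0.09, adjusted p = 0.00279 from limma) passed in all 16 alternatives in which the gene was tested. These include the scaling on ribosomal protein genes, which lowers every log2 difference alike and under which all 85 tested pathway genes passed. *Cyld*, a deubiquitinase with a similar restraining role, had 829, 776 and 856 in *Ltbr*-/- and 980, 1073 and 929 in Ly5.1 cells. Its log2 difference of −0.28 (adjusted p = 0.0329 from limma) passed in 1 of the 6 fits that lacked a sample, the one without Ly5.1 replicate 3, and did not pass with no filter on low values (adjusted p of 0.168). *Nfkbid*, a further nuclear IκB gene, had a log2 difference of 0.09 (adjusted p = 0.569 from limma).

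Of 37 NF-κB target genes, 26 were tested, and 3 were higher and 2 lower, with a median log2 difference of 0.0056. Together these made up 19.2% of the tested targets, beside 14.8% of all tested genes. An unadjusted p under 0.05 from limma was found for 10 targets (38.5%), beside 27.1% of all tested genes. The higher genes were *Sod2*, the mitochondrial superoxide dismutase, at 0.25, *Fas*, a death receptor, at 0.26, and *Myc* at 0.22, with adjusted p-values of 0.0466, 0.0174 and 0.0443 from limma; the log2 difference of each is negative with samples scaled on ribosomal protein genes. The lower genes were *Irf1*, an interferon regulatory factor, at −0.34, and the early response gene *Egr1* at −0.25, with adjusted p-values of 0.00676 and 0.0229 from limma. In 8 of the 26 tested targets the genotypes did not overlap, which was so for 30.4% of all tested genes. The 5 named genes are among them, but they were picked by the adjusted p of the same values. *Sod2* did not pass in any fit without 1 sample, *Myc* passed only without Ly5.1 replicate 3, *Fas* only without *Ltbr*-/- replicate 3 or Ly5.1 replicate 3, *Irf1* failed without Ly5.1 replicate 2 and *Egr1* without *Ltbr*-/- replicate 3 or Ly5.1 replicate 2. With no filter on low values, *Irf1*, *Egr1*, *Myc* and *Fas* did not pass (adjusted p of 0.0844, 0.268, 0.150 and 0.218 from limma). After quantile normalization *Myc* was at 0.13 and *Sod2* at 0.23 and neither passed (adjusted p of 0.220 and 0.0726 from limma), while *Egr1* was at −0.39. With eBayes without trend, *Egr1*, *Fas* and *Myc* did not pass (adjusted p of 0.0688, 0.0512 and 0.0619 from limma). With robust eBayes, *Sod2* did not (adjusted p of 0.0545 from limma). The list is mixed in what its genes do, and it moved in no single direction, 13 genes being above 0 and 13 below.

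**Figure D5:**
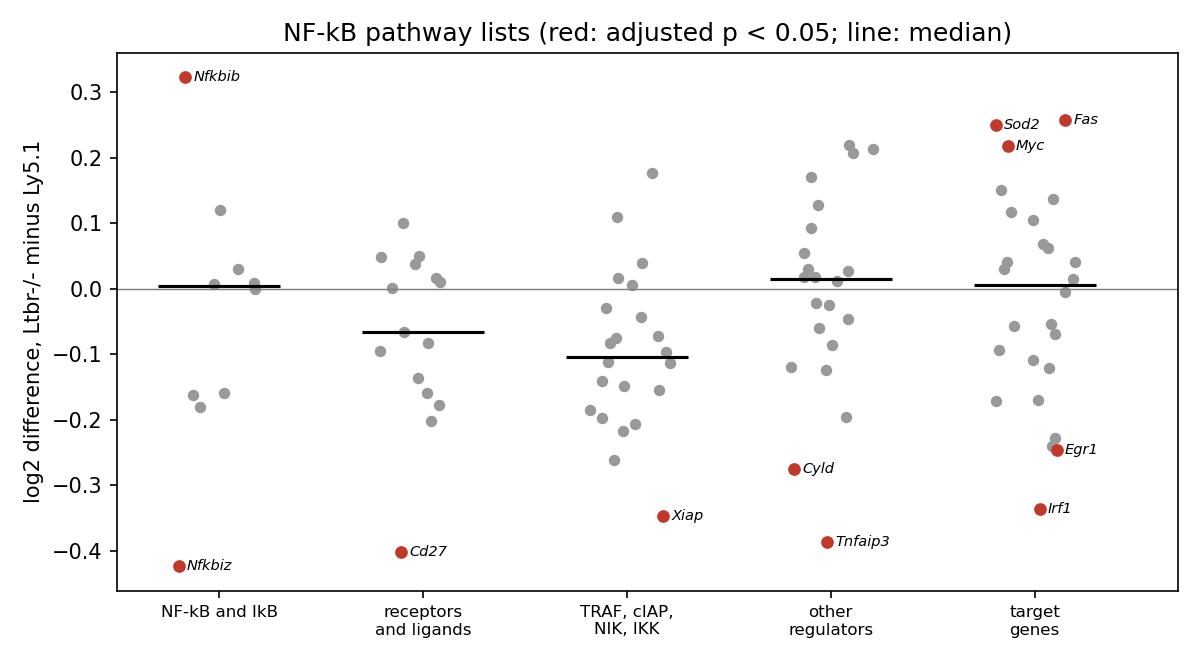
Log2 difference between *Ltbr*-/- and Ly5.1 cells (vertical axis) for the tested genes of the members and the 4 pathway lists (horizontal axis), in the scaling as deposited; each point is a gene, red at an adjusted p under 0.05, and lines are medians. The medians lie between −0.10 and 0.01, and the red points run from *Nfkbiz* at −0.42 to *Nfkbib* at 0.32.

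Transcript length moved with the differences over all genes and so was set beside the members. The 3900 tested genes with the shortest transcripts had a median log2 difference of 0.061 and the 3900 with the longest one of −0.071. *Nfkbib* has a transcript of 2.06 kb and *Nfkbiz* one of 4.12 kb. After a loess correction for length and GC content, added after the data were seen, *Nfkbib* had a log2 difference of 0.25 (adjusted p = 0.0442 from limma) and *Nfkbiz* one of −0.38 (adjusted p = 0.00204 from limma), so that both still passed. Of the named pathway genes, *Cyld*, *Fas* and *Myc* no longer passed (adjusted p of 0.146, 0.117 and 0.0688 from limma). The number of other pathway genes that passed was 13, against 9 before the correction.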

How the data were processed

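RNA-seq of 3 *Ltbr*-/- and 3 Ly5.1 LT/ST-HSC samples was used. The authors assembled reads with SeqMan NGen, quantified genes with ArrayStar and deposited 1 signal per gene and sample. From the values, this is 2 to the power of a regularized log (DESeq2 and GRCm38 are named in the submitters' processing notes). Size factors and shrinkage are thus included, no pseudocount was added, and fold changes of weakly expressed genes are understated. The annotation used by the authors is not given in the sources used here. The files hold no counts, so depth is unknown, no detection limit can be given, and precision rests on 3 samples per group. Each sample is a pool of animals. The limma p-values use a spread between samples that is moderated toward that of tested genes of similar level. A gene's standard error is therefore not that of its own values alone. For *Nfkbib* it was 0.090, with a within-group SD of 0.054 in log2.

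Of 26595 entries, repeated names were reduced to the one with the highest mean. The upper 50% of 26216 names by mean (13108) were fitted on log2 values with lmFit and eBayes with trend (limma 3.58.1, R 4.3.3), with Benjamini-Hochberg adjustment and, for calls, a fold of at least 1.5. Positions and lengths came from GENCODE M21 (GRCm38), start windows from RefSeq (GRCm38.p6). In each list, up to 6 genes per direction with an adjusted p under 0.05 and the largest log2 difference were named, with the IKK genes, *Map3k14*, *Traf2*, *Tnfaip3* and *Nfkbid* in any case. *Sirt2*, *Psd* and the marker genes named were chosen after their values were seen. *Otulin* was looked up under an older symbol where needed. Members and lists were chosen with earlier results of these data known. Alternatives were a replicate block, other filters, scalings, thresholds and variance models, a pseudocount of 10, averaged repeats, a loess correction and leaving out each sample. The level of 1 marker gene is not reported here.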

Additional observations from a re-analysis of the deposited data

How the results depend on the processing

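Depth is known only as an average over the samples, and regularization limits what can be said of weakly expressed members such as *Rel* and *Bcl3*. The number of members at an adjusted p under 0.05 was 2 and became 1 with no filter on low values (*Nfkbib* only), between 1 and 2 with any sample removed, and 3 after quantile normalization; that of the other pathway genes was 9, then 3 with no filter, and between 4 and 9 with any sample removed. The cause was not tested. The fit with no filter also took in 9034 names with the same value in all samples. Under it the adjusted p of *Ltbr* was 0.000283 from limma, against 2.15e-32 with the filter. With a fold threshold of 1.2, 2 members and 1647 genes were called, and with one of 2, 42 genes. The members' median log2 difference was −0.089 after the loess correction and between −0.058 and 0.032 with any sample removed. Centring on 78 ribosomal protein genes lowers every log2 difference by the same amount by construction and brings the median of all genes from −0.01 to −0.88. It then gave 9 members called and 10 at an adjusted p under 0.05, a members' median of −0.86, 85 other pathway genes and 11955 called genes, 0% of them higher against 97.8% as deposited and 90.3% after quantile normalization. Under it *Nfkb2* was at −0.83, *Rela* at −0.74, *Relb* at −0.86, *Nfkbia* at −0.86, *Nfkbib* at −0.54, *Bcl3* at −0.86, *Fas* at −0.61, *Myc* at −0.65, *Nfkbid* at −0.77 and *Sod2* at −0.61. Relative to the median gene, *Nfkbib* was at 0.33 and *Nfkbiz* at −0.41. Signs of genes near 0 also changed, for *Nfkbia* after quantile normalization (−0.035), for *Relb* (−0.051), *Nfkbia* (−0.10), *Bcl3* (−0.081) and *Ikbkg* (0.035) after the loess correction, and with a sample removed for *Nfkbia* (−0.084 to 0.060), *Nfkb2* (−0.013 to 0.059), *Relb* (−0.060 to 0.055), *Bcl3* (−0.061 to 0.062), *Ikbkg* (−0.079 to 0.016) and *Chuk* (−0.15 to 0.011). Of 166 values of members under alternatives, 141 kept direction and side of the threshold, 2 lost it, 4 gained it and 19 changed sign.

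Samples of the same replicate number did not deviate together (Pearson r across genes of 0.03, −0.01 and 0.09), so that the number was not taken as a pairing. With it as a block, 2 members passed (*Nfkbib* at an adjusted p of 0.0151 and *Nfkbiz* at 0.00190 from limma), with 10 other pathway genes and 364 calls in all. *Ltbr* lay between −4.54 and −4.00 in all alternatives that keep the scaling on all genes. The count test with DESeq2 was not run, since the files hold no counts.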

Other observations

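*Nfkb2* shares 830 exonic bases with genes on the opposite strand, among them *Psd*, which encodes an exchange factor for a small GTPase. *Psd* had values of 225, 236 and 244 in *Ltbr*-/- and of 198, 177 and 192 in Ly5.1 cells. These did not overlap, with a log2 difference of 0.31 (standard error 0.09, adjusted p = 0.0147 from limma), while *Nfkb2* differed by 0.03.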
